A study of Mus musculus with 21 samples.

Results

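The genes described here are 8 genes of cholesterol metabolism among the 27179 genes counted in podocyte-enriched kidney fractions of mice. They were chosen by name and function, with earlier results of these data known. *Hmgcs1*, *Idi1*, *Fdft1*, *Sqle* and *Lss* encode enzymes of cholesterol synthesis. *Srebf2* and *Insig1* encode regulators of that route, and *Abca1* encodes the pump that moves cholesterol out of the cell. None of the 8 is an uptake receptor, so uptake was followed in a separate list of 10 genes. The libraries came from C57BL/6J wildtype male mice, 1 mouse per library. The young group held 6 untreated mice aged 4 months. The saline group held 7 mice aged 19.5 months that had received saline, and the MCC950 group held 8 mice of the same age that had received MCC950, a small molecule inhibitor of the NLRP3 inflammasome, at 10 mg/kg. Both injected groups were treated 2 times a week for 6 weeks from an age of 18 months. The young mice were not injected, so in the comparison of saline with young mice, age and injection cannot be told apart.

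Cells make cholesterol from acetyl-CoA. *Hmgcs1* acts early in the route, *Idi1* makes the isoprenoid unit that is built into longer chains, *Fdft1* joins such chains into squalene, *Sqle* oxidises squalene and *Lss* closes it into the first sterol. When sterols in the endoplasmic reticulum run low, SREBP2, the product of *Srebf2*, is cut from the membrane and switches on the genes of this route and of lipoprotein uptake. INSIG1 holds SREBP2 back when sterols are plentiful. *Abca1* is switched on by the oxysterol receptors of the LXR family. In podocytes, the cells that wrap the glomerular capillaries, cholesterol is a component of the membrane domain that carries the slit diaphragm.

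SREBP2 acts at promoters through sterol regulatory elements, usually beside NF-Y boxes, so the promoters were searched for both. The GC box was searched as well. RefSeq gave a promoter window for 6 of the 8 genes. The window ran from 250 bases before the transcription start to 50 bases after it on GRCm38.p6. The sterol regulatory element core was searched as TCACNCCA, the NF-Y box as CCAAT and the GC box as GGGCGG, each on either strand. The core was found in 2 of the members, *Hmgcs1* at 137 bases and *Srebf2* at 162 bases before the start, against 4.36% of all 32851 windows. The NF-Y box was present in every member window but that of *Abca1*, against 37.41% of all windows. The GC box was present in every member window, against 35.66% of all windows. Of 13 other enzymes of the route with a window, 1 had the core, 12 had the NF-Y box and 12 had the GC box. An enzyme was counted if any of its windows held the motif, whereas the percentages are shares of single windows. The 250 bases before the start are shown for the 2 promoters with the core and for *Lss* and *Idi1*, which rose after MCC950 but had no core in this window. The core and the NF-Y box are in capitals, and ATTGG is the NF-Y box read from the other strand.
Hmgcs1, chr13:119690101-119690350, plus strand: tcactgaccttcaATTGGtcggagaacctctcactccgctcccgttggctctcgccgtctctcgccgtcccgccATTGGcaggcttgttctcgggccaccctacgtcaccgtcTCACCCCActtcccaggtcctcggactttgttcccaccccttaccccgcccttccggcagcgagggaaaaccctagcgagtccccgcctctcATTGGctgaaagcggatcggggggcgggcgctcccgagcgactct
Srebf2, chr15:82147019-82147268, plus strand: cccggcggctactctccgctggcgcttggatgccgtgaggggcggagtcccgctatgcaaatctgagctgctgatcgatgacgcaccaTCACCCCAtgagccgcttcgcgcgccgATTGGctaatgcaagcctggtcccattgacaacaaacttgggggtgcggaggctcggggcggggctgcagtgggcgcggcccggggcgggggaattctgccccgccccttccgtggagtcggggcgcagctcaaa
Lss, chr10:76531355-76531604, plus strand: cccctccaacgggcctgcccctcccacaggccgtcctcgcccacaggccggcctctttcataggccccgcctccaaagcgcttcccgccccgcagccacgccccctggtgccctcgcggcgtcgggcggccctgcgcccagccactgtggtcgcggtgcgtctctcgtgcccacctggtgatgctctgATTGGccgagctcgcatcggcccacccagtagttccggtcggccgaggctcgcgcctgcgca
Idi1, chr13:8885356-8885605, plus strand: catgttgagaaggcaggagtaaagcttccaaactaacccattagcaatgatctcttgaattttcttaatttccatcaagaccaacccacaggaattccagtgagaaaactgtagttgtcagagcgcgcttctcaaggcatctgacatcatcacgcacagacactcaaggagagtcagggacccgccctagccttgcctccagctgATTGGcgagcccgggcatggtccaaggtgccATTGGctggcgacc
A match of these letters is a description of the window and not a measured binding site.

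The libraries held between 27375870 and 84876399 counts in total, and those of the saline group were deeper than those of the young group (two-sided p = 0.00117 in an exact permutation test, which 6 against 7 libraries cannot go below). The mean mitochondrial share of counts was 69.6% in saline mice and 56.4% in MCC950 mice (exact permutation test, p = 0.000622). The podocyte markers were present in every library, with a summed level of 397 to 1901 CPM (counts scaled to a common library size of 1e+06) over 15 genes, but the fractions also held other kidney cells. Proximal tubule markers summed to 2327 to 10840 CPM over 15 genes and macrophage markers to 574 to 4599 CPM over 13 genes. With bulk samples, fewer cells of a type and less RNA per cell cannot be told apart. Levels below are CPM after TMM scaling, each test is edgeR's quasi-likelihood F test with Benjamini-Hochberg adjustment over 16377 genes, and a gene was called changed at an adjusted p under 0.05.

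After MCC950, 3 of the 8 genes rose compared with saline and none fell. They were *Hmgcs1*, which acts early in the route, *Idi1*, and *Lss*, which makes the first sterol. Over all genes tested, 11.9% were called higher and 4.86% lower in this comparison. All 5 enzymes had a positive fold change. In no member were the groups fully apart, which was the case in the higher direction for 1.15% of all genes and in the lower direction for 0.586%. In the other comparisons that share was 4.51% higher and 4.86% lower for saline against young mice, and 3.28% and 4.66% for MCC950 against young mice, likewise with no member among them.

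*Hmgcs1* (chr13:119690379-119708260 on GRCm38, plus strand), the HMG-CoA synthase, was the most abundant enzyme of the 5 per kilobase of exon in each group. Its level had a lowest, median and highest value of 54.1, 67.5 and 75.01 CPM in the 7 saline libraries and of 64.1, 108.04 and 140.02 CPM in the 8 MCC950 libraries. Of the MCC950 libraries, 7 of 8 were above the highest saline library, and only replicate 6 was within the saline range. The log2 fold change was 0.64 (SE 0.16, adjusted p = 0.0126).

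*Idi1* (chr13:8885501-8892451, plus strand), the isopentenyl diphosphate isomerase, ranged from 8.69 to 21.9 CPM around a median of 17.3 in saline mice. In MCC950 mice it ranged from 14.3 to 45.7 CPM around a median of 23.5. Replicates 3 and 8 were the highest of the MCC950 group at 45.7 and 33.5 CPM, and 6 of 8 libraries were above every saline library. The log2 fold change was 0.67 (SE 0.21, adjusted p = 0.0348), and this call was lost in 8 of the 21 fits that left out a library, those without saline replicate 1, 2, 3, 4, 5 or 6 or MCC950 replicate 3 or 8 (adjusted p of up to 0.0846). With the podocyte marker score as a covariate its log2 fold change was 0.64 (adjusted p = 0.0625), and with the replicate number as a block it was 0.59 (adjusted p = 0.0839).

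*Lss* (chr10:76531588-76557138, plus strand), the lanosterol synthase, was the lowest of the 5 enzymes per kilobase of exon in each group. It ranged from 3.83 to 5.73 CPM in saline mice, with a median of 4.97, and from 5.36 to 10.8 CPM in MCC950 mice, with a median of 6.98. Every MCC950 library was above the saline median and 6 of 8 were above the saline maximum. The log2 fold change was 0.57 (SE 0.15, adjusted p = 0.0142). With the counts outside the mitochondrial genes thinned to the same number in every library, *Lss* (adjusted p = 0.178) and *Idi1* (0.0897) were not called and *Hmgcs1* (0.0361) was. The annotated *Lss* gene overlaps *4930483K19Rik* on the other strand. *Hmgcs1* likewise overlaps *Gm48342*, and *Idi1* overlaps *Gm48574*. Whether counting used strand was not given in the sources used here.

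*Sqle* (chr15:59315077-59331192, plus strand), the squalene epoxidase, did not pass the threshold against saline. Its levels were 10.5, 14.7 and 20.9 CPM (lowest, median and highest) in saline mice and 14.1, 22.4 and 29.0 CPM in MCC950 mice, with a log2 fold change of 0.51 (SE 0.18, adjusted p = 0.0538). The MCC950 group was shifted upward, with 5 of 8 libraries above the saline maximum, but the saline libraries fell into 4 low and 3 high values and covered the lower MCC950 libraries. It passed without saline replicate 7 (adjusted p = 0.0482), without MCC950 replicate 6 (0.0221) and by DESeq2 (0.0394). The adjusted p of *Sqle* reached 0.218 over 11 other processing and fit settings and 0.136 without 1 library. *Fdft1* (chr14:63145150-63179578, minus strand), the squalene synthase, did not pass either. It ranged from 8.80 to 13.4 CPM in saline mice and from 10.2 to 20.8 CPM in MCC950 mice (log2 fold change 0.39, SE 0.16, adjusted p = 0.0896, and 0.0458 without MCC950 replicate 6). Over the same 11 settings the adjusted p of *Fdft1* ranged from 0.0826 to 0.362, and without 1 library it reached 0.209. Its 3′ end overlaps *Ctsb*, a protease gene on the other strand.

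**Figure D1:**
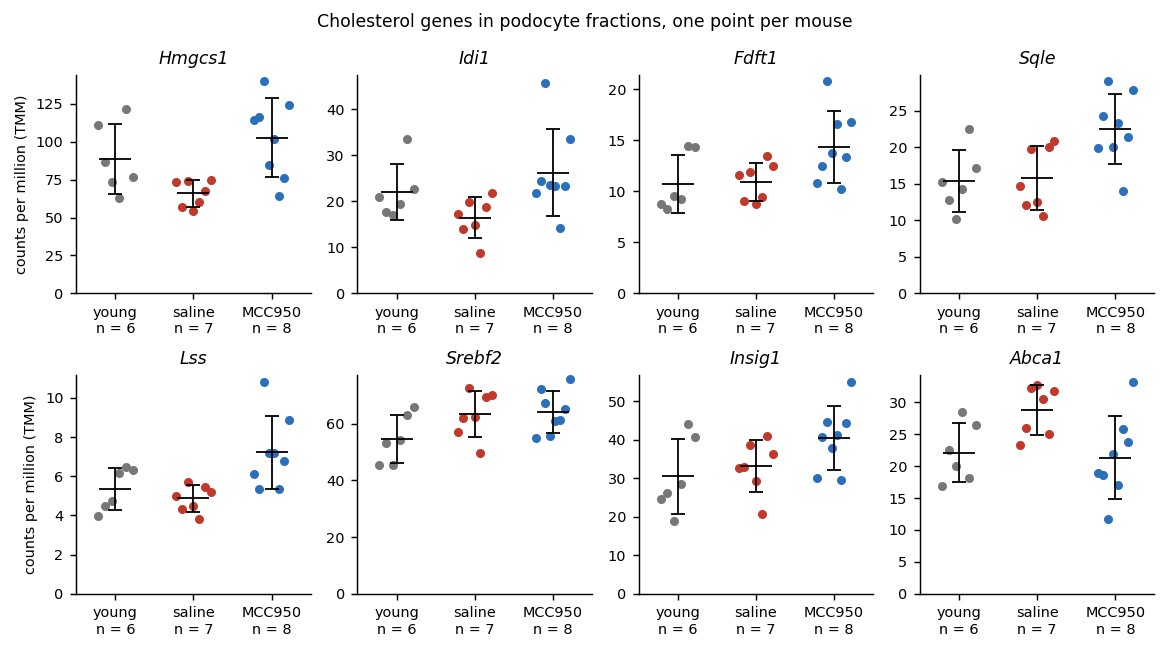
Levels of the 8 genes in CPM after TMM scaling (linear axes from 0), with 1 point per mouse for 6 young, 7 saline and 8 MCC950 mice; the long bar is the mean and the whiskers the SD. For *Hmgcs1*, 7 of 8 MCC950 mice lie above every saline mouse, whereas the groups of *Srebf2* cover nearly the same range in both injected groups.

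The regulators did not follow the enzymes over the test's threshold. *Srebf2* (chr15:82147181-82205379, plus strand) had a median of 62.3 CPM in saline and 63.3 CPM in MCC950 mice, with ranges of 49.8 to 72.8 and 54.9 to 75.8 CPM. Its log2 fold change was 0.02 (SE 0.10, adjusted p = 0.925), and the sign turned under other scalings. SREBP2 is controlled by cleavage, which RNA levels do not measure. *Insig1* (chr5:28071363-28078662, plus strand), itself a target gene of SREBP2, had a median of 33.0 CPM in saline and 41.1 CPM in MCC950 mice, with overlapping ranges of 20.6 to 41.0 and 29.5 to 55.1 CPM (log2 fold change 0.29, SE 0.17, adjusted p = 0.258).

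*Abca1* (chr4:53030787-53159895, minus strand) was the member with a negative fold change after MCC950. Its levels were 23.4, 30.6 and 32.7 CPM (lowest, median and highest) in saline mice and 11.7, 20.4 and 33.2 CPM in MCC950 mice. Of the MCC950 libraries, 5 of 8 were below the lowest saline library, while replicate 8 was above the highest. The log2 fold change of -0.43 (SE 0.16) had an adjusted p of 0.0719. Without MCC950 replicate 8 the adjusted p was 0.0206, and by DESeq2 it was 0.0459. Macrophages also express *Abca1*, and the summed macrophage markers covered 1998 to 4599 CPM in saline and 1287 to 4529 CPM in MCC950 mice (mean log2 level 7.37 and 7.08, exact permutation p = 0.314). With that marker score as a covariate, the log2 fold change of *Abca1* was -0.36 (adjusted p = 0.0258). Over all 11 other processing and fit settings it ranged from -0.58 to -0.075, with adjusted p-values from 0.00656 to 0.837. Only DESeq2, the replicate block and the macrophage score called *Abca1* lower. With the proximal tubule score or the podocyte score as a covariate it was not called. Without 1 library the adjusted p reached 0.141.

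The 16 other enzymes of the synthesis route showed the same direction. This list follows function but was chosen with earlier results of these data known, so it is not an independent test. After MCC950, 6 of 16 were called higher and none lower, where 11.9% of all genes were called higher and 4.86% lower. Of the 16, 15 had a positive log2 fold change, and their median was 0.34 against 0.00 over all genes. *Acat2*, which makes the acetoacetyl-CoA that *Hmgcs1* uses, ranged from 13.3 to 22.5 CPM in saline and from 24.9 to 39.9 CPM in MCC950 mice, and the groups did not overlap (log2 fold change 0.96, SE 0.16, adjusted p = 0.00132). *Mvd*, the decarboxylase before *Idi1*, ranged from 5.65 to 9.67 CPM in saline and from 10.3 to 16.4 CPM in MCC950 mice, likewise without overlap (log2 fold change 0.90, SE 0.15, adjusted p = 0.00136). *Nsdhl*, a sterol dehydrogenase late in the route, had medians of 14.6 and 22.3 CPM (log2 fold change 0.75, SE 0.15, adjusted p = 0.00379). *Fdps* (0.83) and *Cyp51* (0.73), named after their values were seen, were also called. The enzymes *Ebp*, *Sc5d*, *Dhcr7* and *Lbr*, also named afterwards, had log2 fold changes between -0.07 and 0.20 and were not called. *Tm7sf2* (0.37, adjusted p = 0.0895) and *Hsd17b7* (0.32, adjusted p = 0.144), likewise named afterwards, had larger values and were not called either.

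**Figure D2:**
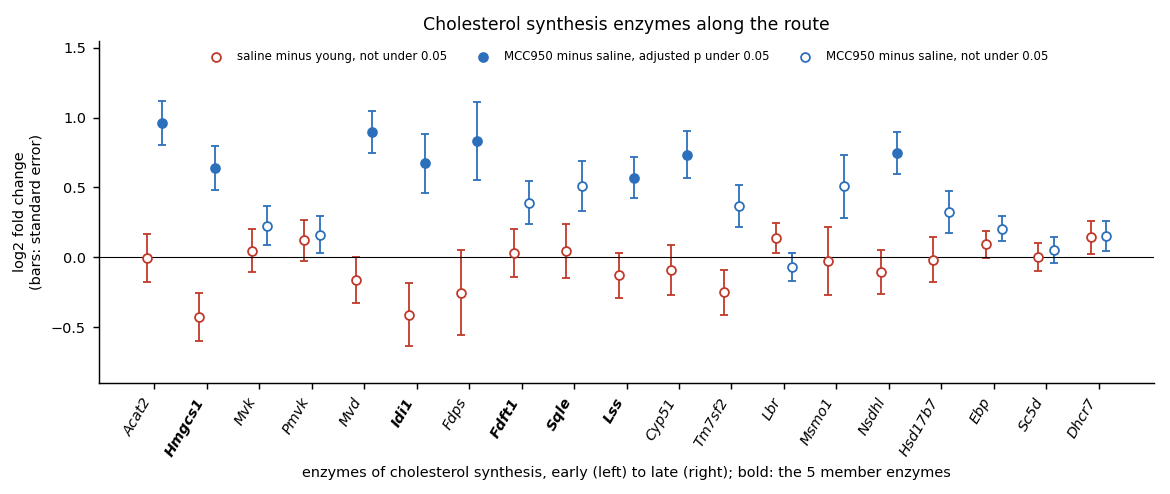
Log2 fold changes with SE of 19 enzymes of cholesterol synthesis from early (left) to late (right) steps, saline minus young in red and MCC950 minus saline in blue, filled where the adjusted p was under 0.05. After MCC950, 18 of 19 points are above 0 and 8 are filled, whereas no point of the comparison with young mice is filled.

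The levels of proximal tubule markers differed between the same groups. The proximal tubule marker score (mean log2 CPM) was 8.04 in MCC950 and 7.14 in saline mice (exact permutation test, p = 0.00249, Benjamini-Hochberg adjusted 0.00710 over 20 marker tests), the summed markers ranged from 3933 to 10840 and from 2404 to 5883 CPM, and 9 of 15 markers were called higher. Podocyte markers moved in the same direction, with 5 of 15 called higher and 1 lower. When the proximal tubule score entered the fit as a covariate, the log2 fold change of *Lss* was 0.73 (adjusted p = 0.0346), that of *Idi1* 0.70 (adjusted p = 0.171) and that of *Hmgcs1* 0.28 (adjusted p = 0.388). *Lss* was then the 1 member called. Among the 16 other enzymes, the 6 calls became 1, *Acat2* (log2 fold change 0.48, adjusted p = 0.0331), and *Mvd* had 0.53 (adjusted p = 0.0517). Over all genes, the calls went from 1957 to 384 higher and from 796 to 309 lower in the same fit. The score itself differs between the groups, so the covariate and the treatment share variation and this fit does not tell them apart.

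**Figure D3:**
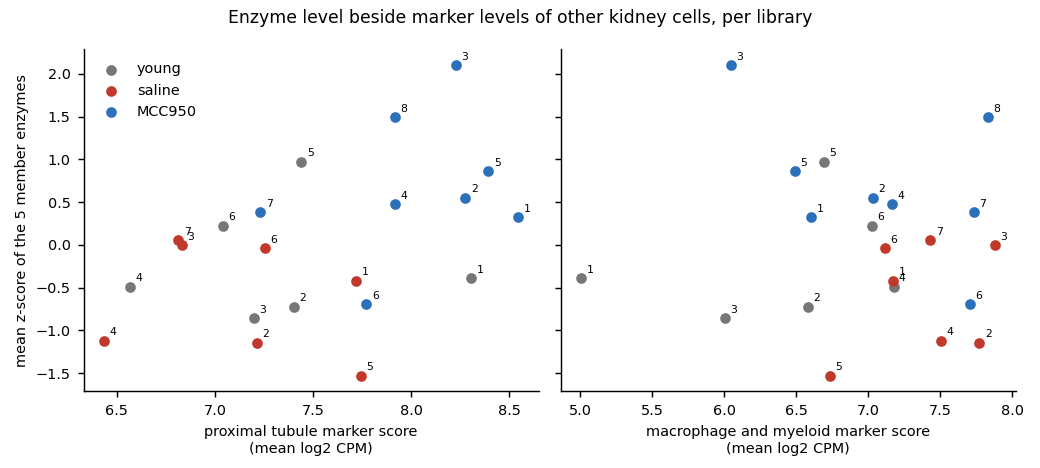
Mean z-score of the 5 member enzymes (y axis, no unit) against the proximal tubule marker score (left) and the macrophage marker score (right), both as mean log2 CPM, 1 numbered point per library. MCC950 replicate 7 has a proximal tubule score of 7.23, inside the saline range, and an enzyme score of 0.38, above the saline maximum of 0.05, while MCC950 replicate 6 is below that maximum. All other MCC950 libraries have proximal tubule scores above the highest saline score of 7.74.

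With age, no enzyme of the route passed the threshold. None of the 8 genes was called between saline and young mice, where 12.2% of all genes were higher and 12.4% lower, and 0 of the 16 other enzymes was called by edgeR. At an unadjusted p under 0.05, *Hmgcs1* was lower and *Abca1* higher among the members, and none of the 16 other enzymes passed; DESeq2 called *Hmgcs1* lower. *Hmgcs1* had levels of 62.7, 81.8 and 122 CPM (lowest, median and highest) in young mice, and all 7 saline libraries were below the young median (log2 fold change -0.43, SE 0.17, adjusted p = 0.0722). Without young replicate 4 or MCC950 replicate 6 the adjusted p was 0.0295 or 0.0484. It reached 0.170 in the other fits without 1 library and 0.459 over the 11 other processing and fit settings. *Idi1* had a median of 20.2 CPM in young mice and a log2 fold change of -0.41 (SE 0.23, adjusted p = 0.198). *Fdft1*, *Sqle* and *Lss* had log2 fold changes of 0.03, 0.04 and -0.13, all smaller than their SE of 0.16 to 0.19. For *Srebf2* the log2 fold change was 0.22, with an adjusted p of 0.145, and for *Insig1* it was 0.12, with an adjusted p of 0.681.

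*Abca1* had levels of 16.9, 21.2 and 28.5 CPM (lowest, median and highest) in young mice, and all 7 saline libraries were above the young median, 4 of them above the young maximum (log2 fold change 0.38, SE 0.18, adjusted p = 0.121). The macrophage score rose from 6.41 to 7.37 between the same groups (exact permutation test, p = 0.0105, adjusted 0.0262 over 20 marker tests), and with that score as a covariate the log2 fold change of *Abca1* was 0.00 (adjusted p = 0.987). The score and age share variation, so this fit does not tell them apart, and the part of macrophages in the values of *Abca1* was not tested. Of the 15 podocyte markers, 14 were lower in saline than in young mice.

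The MCC950 libraries were also compared with the young ones, a comparison that shares libraries with both others. Of the 8 genes, 2 were called higher and none lower, where 21.8% and 16.5% of all genes were called. *Sqle* was at a median of 14.8 CPM in young and 22.4 CPM in MCC950 mice (log2 fold change 0.55, SE 0.19, adjusted p = 0.0258), and *Lss* at 5.44 and 6.98 CPM (log2 fold change 0.44, SE 0.16, adjusted p = 0.0315). *Sqle* lost its call without young replicate 2, 3 or 4 (adjusted p of up to 0.0882), and *Lss* without young replicate 1, 2 or 3 or MCC950 replicate 3 or 8 (up to 0.0948). Both also lost their calls with the replicate block, with the podocyte score and with thinning to equal depth. *Sqle* lost it with the proximal tubule score as well, and *Lss* with only the groups compared. The highest adjusted p under the 11 other settings was 0.573 for *Sqle* and 0.386 for *Lss*. A count of 2 of 8 is close to the share over all genes. *Fdft1* (0.42, adjusted p = 0.0503), *Insig1* (0.41, adjusted p = 0.0776) and *Srebf2* (0.23, adjusted p = 0.0792) were positive on the log2 scale but were not called. *Fdft1* passed in 5 fits that left out a library, those without young replicate 5 or 6 or MCC950 replicate 1, 2 or 6 (adjusted p down to 0.0269), with the macrophage score (0.0495) and with at least 10 counts required in every library (0.0463). *Insig1* passed without young replicate 5 (0.0307), without MCC950 replicate 6 (0.0496) and with the proximal tubule score (0.55, adjusted p = 0.0477), and *Srebf2* with the latter (0.36, adjusted p = 0.0164). Over the 11 other processing and fit settings, the highest adjusted p was 0.705 for *Fdft1*, 0.736 for *Insig1* and 0.432 for *Srebf2*. *Hmgcs1* and *Idi1*, with log2 fold changes of 0.21 and 0.26, and *Abca1*, with -0.05, had adjusted p-values of 0.330, 0.367 and 0.848.

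**Figure D4:**
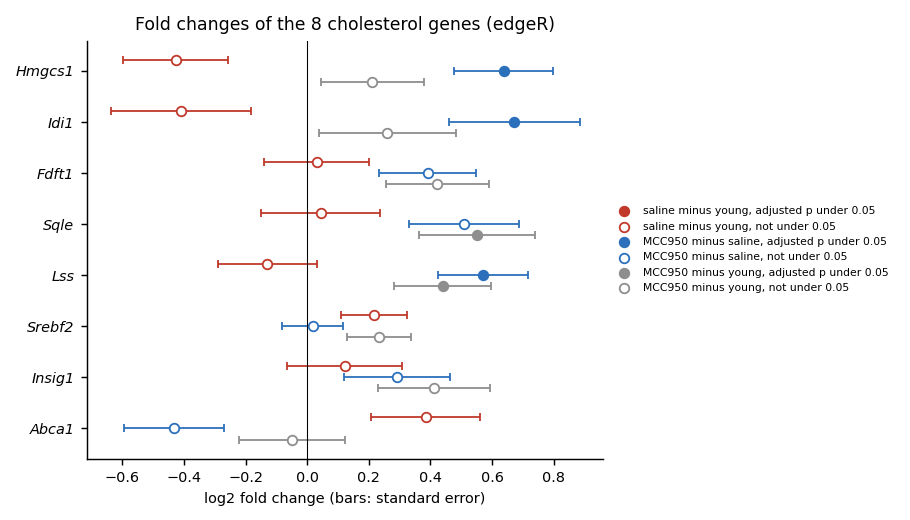
Log2 fold changes (points) with SE (bars) of the 8 genes in the 3 comparisons, filled where the adjusted p was under 0.05. The 3 filled points of MCC950 minus saline are *Hmgcs1*, *Idi1* and *Lss*, those of MCC950 minus young are *Sqle* and *Lss*, and saline minus young has none.

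Genes around the synthesis route were followed in fixed lists. None of the 7 genes for SREBP processing and sterol sensing was called by edgeR after MCC950 or with age; at an unadjusted p under 0.05, 1 was higher and 1 lower after MCC950 and none with age, and DESeq2 called 1 lower after MCC950, *Mbtps2*, named after its values were seen, and none with age. Of the 10 genes for uptake and intracellular transport, 1 was called higher and none lower after MCC950, near the 11.9% of all genes called higher. With age, 3 of the 10 were called higher, where 12.2% of all genes were: *Npc1* (0.51, SE 0.12, adjusted p = 0.00343) and *Npc2* (0.56, SE 0.17, adjusted p = 0.0176), which move cholesterol out of lysosomes, and *Lipa* (0.37, SE 0.12, adjusted p = 0.0346), the lysosomal acid lipase. The macrophage markers were higher with age as well, with 13 of 13 positive fold changes and 4 called, and with their score as a covariate the log2 fold change was 0.24 for *Npc1* (adjusted p = 0.0552), 0.14 for *Npc2* (0.309) and 0.38 for *Lipa* (0.0747). The part of macrophages in these values was not tested.

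Of the 12 genes for efflux, esterification and LXR, 10 were tested. With age, 4 were called higher, where 12.2% of all genes were. *Nr1h3*, which encodes the receptor LXR alpha, was at a median of 5.85 CPM in young and 11.9 CPM in saline mice (log2 fold change 0.97, SE 0.18, adjusted p = 0.000769). *Soat2*, a cholesterol esterifying enzyme, had 1.20 (SE 0.34, adjusted p = 0.0133), and *Apoe*, the apolipoprotein that accepts cholesterol, had 1.44 (SE 0.46, adjusted p = 0.0250). The fourth, *Soat1*, named after its values were seen, had 0.40 (adjusted p = 0.0407). With the macrophage score as a covariate, the log2 fold change was 0.97 for *Nr1h3* (adjusted p = 0.00580), 0.73 for *Soat2* (0.105), 0.46 for *Apoe* (0.112) and 0.07 for *Soat1* (0.608). After MCC950, 1 of the 10 was called higher, *Nceh1*, a cholesterol ester hydrolase (0.30, SE 0.10, adjusted p = 0.0490), near the share of 11.9% over all genes, and none was called lower.

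The enzymes varied together from mouse to mouse. With the group means taken away, Pearson's r between pairs of the 5 enzymes over the 21 libraries ranged from 0.35 to 0.91 with a median of 0.76. *Insig1* had r of 0.41 to 0.86 with the enzymes, *Srebf2* 0.27 to 0.74 and *Abca1* -0.52 to -0.06. These libraries share depth and cell makeup as well as biology, so the values are descriptions. MCC950 replicates 3 and 8 had the highest enzyme scores of all libraries (2.10 and 1.49), and saline replicate 5 the lowest (-1.53). The 5 genes outside the lists most like the enzyme score over all 21 libraries were *Palm3* (r = 0.85), *Pcyt2* (0.84), *Mrps22* (0.83), *Dffa* (0.81) and *Chka* (0.81). With the group means taken away they were *Ptges3l* (0.82), *Trp53inp2* (0.78), *Nabp1* (0.78), *Tubb2b* (0.78) and *Gm17767* (0.76). The median over the 16 other enzymes was 0.74 and 0.72 in the same order, and over all genes tested 0.02 and 0.00.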

How the data were processed

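RNA from podocyte fractions, sorted magnetically with nephrin antibodies from digested kidney cortex, was sequenced in 21 libraries. The deposited values are raw counts per gene that the authors made; per the labels, the submitters' processing notes name Trim Galore, Bowtie2, featureCounts and the build GRCm38 (mm10). The authors' table of normalized values was not used. Gene numbers were named through RefSeq (25275 of 27179) and GENCODE M21 (18), and 1886 stayed unnamed. Total counts were 27375870 to 36827823 per young, 45772937 to 84876399 per saline and 35440472 to 58247271 per MCC950 library. The fold changes were computed with edgeR 4.0.16 (R 4.3.3): TMM scaling, genes filtered by expression, all 3 groups in 1 quasi-likelihood fit, Benjamini-Hochberg adjustment and a threshold of 0.05. Alternatives included DESeq2 1.42.0, other filters and scalings, thinning to 5804891 counts outside the mitochondrial genes, the lowest such number of any library, marker scores as covariates, a replicate block, and leaving out each library. On simulated data for MCC950 minus saline (16377 genes), edgeR called 178 of 200 genes changed by a log2 fold of 1, with 7 unchanged genes called. DESeq2 called 188 of the 200, with 30 unchanged genes called. The fold changes of the members in the edgeR fit were smaller, at most 0.67 (*Idi1* after MCC950), and recovery at their size was not simulated. Marker scores were tested between groups by exact permutation, two-sided. No libraries were duplicates. Samples of different groups that share a replicate number did not deviate together in every pair (correlations of -0.14 to 0.40), so no pairing was used. The members and lists were chosen with earlier results of these data known. Genes named from a list were the 3 with the smallest p among those called in the comparisons with age and with MCC950, unless the text says otherwise; the genes most like the enzymes were the 5 with the highest Pearson r. Promoter sequences are RefSeq's, on GRCm38.p6; coordinates are GENCODE's, on GRCm38. Some genes of the lists are included in the counts but are not reported here by name, and are left out of the plot of the enzymes.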

Additional observations from a re-analysis of the deposited data

Results flagged for a closer look

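*Idi1* stood out in 1 young library: replicate 5 had 33.63 CPM, the highest of the 6 young mice, and its gap to the next library took 0.653 of the range of the group, above the limit of 0.625 for 6 samples. The same mouse had the highest value of its group for each of the other enzymes. Its library had the fewest counts outside the mitochondrial genes of all libraries (5804891). It also had the highest mitochondrial share (80.4%) and the lowest TMM scaling factor (0.601). Its raw *Idi1* count of 599 lay within the range of 527 to 841 in the other young libraries. Whether these traits of the library account for its high values was not tested. Of 24 groups tested, 1 was set apart by such a gap, and chance alone does so in about 1 of 20 groups.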

How the results depend on the processing

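The 8 genes were refitted under 11 other settings and without each of the 21 libraries. Of 264 gene values under the other settings, 222 kept direction and side of the threshold; of 504 without a library, 452 did. *Hmgcs1* and *Lss* remained called after MCC950 in all 21 fits without a library (highest adjusted p 0.0388 and 0.0414), whereas *Idi1* lost its call without saline replicate 1, 2, 3, 4, 5 or 6 or MCC950 replicate 3 or 8 (highest 0.0846). DESeq2 called 1 of the 8 genes lower with age and 1 lower after MCC950, and 1250 of all genes lower after MCC950. With only the groups compared, 1 member was called higher and 1 lower with age, and 1 higher against young. With the replicate block, which rests on a shared number only, *Idi1* lost its call after MCC950 (0.59, adjusted p 0.0839), 1 member was called lower (*Abca1*, -0.58) and 0 higher against young. With the proximal tubule score, 1 member and 1 other enzyme stayed higher after MCC950, with 384 genes higher and 309 lower. With the podocyte score, *Idi1* lost its call after MCC950 (0.64, adjusted p 0.0625), and 6 genes were higher and 0 lower with age, 1197 lower after MCC950, and against young 33 higher, 87 lower and 0 members higher. With the macrophage score, 1 member was lower after MCC950 and 1 against young. With counts outside the mitochondrial genes thinned to equal depth, 1273 genes were higher and 1123 lower with age, 792 and 515 after MCC950, and 1988 higher against young; 1 member stayed higher after MCC950 and 0 against young. The cause was not tested, except that thinning leaves fewer counts. Signs turned for small values: *Srebf2* after MCC950 at -0.0033 (RLE), -0.0032 (DESeq2), -0.0037 (only the groups compared), -0.019 (block), -0.021 (podocyte score) and -0.069 (thinned). *Sqle* with age was -0.0069 (block) and -0.10 (podocyte score). With the podocyte score, *Lss*, *Fdft1* and *Insig1* with age were 0.027, -0.15 and -0.045, and *Hmgcs1* against young was -0.023. *Insig1* with age was -0.079 (macrophage score), *Lss* with age 0.0084 (thinned), and against young *Hmgcs1* was -0.052 and *Abca1* 0.25 (proximal tubule score). Without 1 library, ranges were -0.051 to 0.18 for *Sqle* and -0.041 to 0.12 for *Fdft1* with age, -0.033 to 0.047 for *Srebf2* after MCC950 and -0.17 to 0.042 for *Abca1* against young. Members called lower with age ranged from 0 to 1, called higher after MCC950 from 2 to 5, lower from 0 to 1, and higher against young from 0 to 4; all genes after MCC950 from 1007 to 2393 higher and 515 to 1005 lower.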

Other observations

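Routes that branch from cholesterol synthesis or share SREBP target genes were also counted. Of 13 fatty acid synthesis genes, edgeR called 5 higher and none lower after MCC950, and DESeq2 6 and 0, with a median edgeR log2 fold change of 0.26. Over all genes tested, edgeR called 11.9% higher and 4.86% lower. *Acaca*, the acetyl-CoA carboxylase, had 0.26 (SE 0.07, adjusted p = 0.0195 by edgeR), *Acss2*, which makes acetyl-CoA from acetate, 0.71 (SE 0.22, adjusted p = 0.0314) and *Fads2*, a desaturase, 0.67 (SE 0.22, adjusted p = 0.0390); *Fasn* and *Acly* made up the 5 and are named after their values were seen. With the proximal tubule score as a covariate, *Acss2* had -0.12 (adjusted p = 0.455) and *Fads2* -0.09 (adjusted p = 0.726). With age, 2 of the 13 were called lower, *Scd2* (-0.88, SE 0.16, adjusted p = 0.000581) and *Fasn* (-0.34, SE 0.12, adjusted p = 0.0448). That count is near the 12.4% of all genes called lower with age.

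Of 13 genes of the isoprenoid branch, which leads to dolichol, ubiquinone and prenylated proteins, edgeR called 5 higher and none lower after MCC950. The shares over all genes were 11.9% higher and 4.86% lower. DESeq2 called 8 higher and 1 lower, *Pggt1b* (-0.39, adjusted p = 0.0283). *Nus1*, a subunit of the dolichol-making prenyltransferase, had a log2 fold change of 0.73 (SE 0.12, adjusted p = 0.00132 by edgeR), and its partner subunit *Dhdds* 0.26 (SE 0.06, adjusted p = 0.00967). *Fnta*, a subunit of the protein farnesyltransferase, had 0.24 (SE 0.07, adjusted p = 0.0210), and *Coq2* and *Rce1* made up the 5 and are named after their values were seen. With the proximal tubule score as a covariate, *Nus1* had 0.35 (adjusted p = 0.0290). With age, *Rce1* was called higher (0.22, adjusted p = 0.0262), and *Icmt* (-0.23, adjusted p = 0.0250) and *Pggt1b* (-0.44, adjusted p = 0.0290) were called lower. These counts among 13 genes are near the 12.2% of all genes called higher and the 12.4% called lower with age.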
